A study of Mus musculus with 6 samples.

Results

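RNA levels of the genes of the Wnt and planar polarity pathways were examined in mDCT15, a line of mouse kidney cells that the labels assign to the distal convoluted tubule. The members were matched by gene symbol, with a rule set when earlier results of these data were known. They are Wnt ligands, Frizzled and other receptors, R-spondins, secreted antagonists, the β-catenin machinery and the core planar polarity genes. The rule found 58 members among the 20624 genes of the deposited table. The study sequenced ribosome-depleted total RNA of 3 *Pkd1*-/- and 3 wild type samples, grown in the same medium with fetal bovine serum. The *Pkd1*-/- cells carry a CRISPR-Cas9 edit of *Pkd1*, the gene of polycystin-1. Their titles give the genotype as -/-, although another label field speaks of a knockdown. Whether the edited line was 1 clone is not given in the sources used here. The table gives 1 value per gene that is not part of a comparison of the genotypes, the authors' mean normalized count over all 6 samples. Every level below is that mean over both genotypes. It carries no error between samples, no genotype comparison was made from it, and a mean of this kind can come from groups that differ.

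Wnt proteins are secreted glycoproteins that carry a lipid, added by Porcupine, and bind Frizzled receptors at the surface of the target cell. In the canonical branch, a Frizzled and an LRP co-receptor recruit Dishevelled and Axin, the complex that destroys β-catenin stops working, and β-catenin enters the nucleus and binds TCF/LEF factors. The planar polarity branch uses Frizzled and Dishevelled together with the CELSR, VANGL and PRICKLE proteins to orient cells within the plane of an epithelium. Both branches are known for their part in building kidney tubules.

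The summed level of the ligands came mostly from 2 genes. Most receptors and all genes of the β-catenin machinery had a mean of at least 10, as did 85.3% of all protein-coding genes of the table. Of the 58 members, 44 (75.9%) had a mean normalized count of at least 10, 39 had one of at least 100 and 22 (37.9%) one of at least 1000. Over all genes of the table, noncoding ones included, 66.5% reached 10 and 20.9% reached 1000. Among the protein-coding genes of the table alone the order at 10 was the opposite. That mean was reached by 77.2% of the 57 coding members and 85.3% of all protein-coding genes of the table. Over all annotated protein-coding genes, in the table or not, it was reached by 61.1% of those that match the rule and 54.3% of all. The share at 1000 was not taken for protein-coding genes alone. The means of the members ran from 0.851 for *Celsr3* to 6947 for *Ctnnb1*. Their median was 314, against 104.5 over all genes, noncoding ones included. The member closest above the limit of 10 was *Wnt11* at 17.2, and the closest below it was *Rnf43* at 9.92. The GENCODE annotation holds 74 genes whose symbols match the rule, and the other 16 were not in the table used here.

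A long transcript collects more reads than a short one at the same number of molecules. Levels of single genes are therefore set against each other mainly as mean normalized counts per kilobase of exon. The length is the union of all exons of a gene, which can exceed its longest transcript (9337 against 3683 bases for *Lef1*, 3663 for both in *Fzd2*). Per kilobase the members did not stand higher than other genes. The median of the 58 members was 48.8 per kilobase, the median of the 13859 protein-coding genes of the table was 72.7, and 27 members lay above it. Once genes with a mean under 10 were set aside, the median was 97.5 for members and 97.3 for protein-coding genes. Only 4 members exceeded the 90th percentile of protein-coding genes, 401 per kilobase. These were *Ctnnb1*, *Dkk3*, *Wnt7b* and *Celsr2*. Together the members took 0.325% of the summed mean counts of the table.

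**Figure D1:**
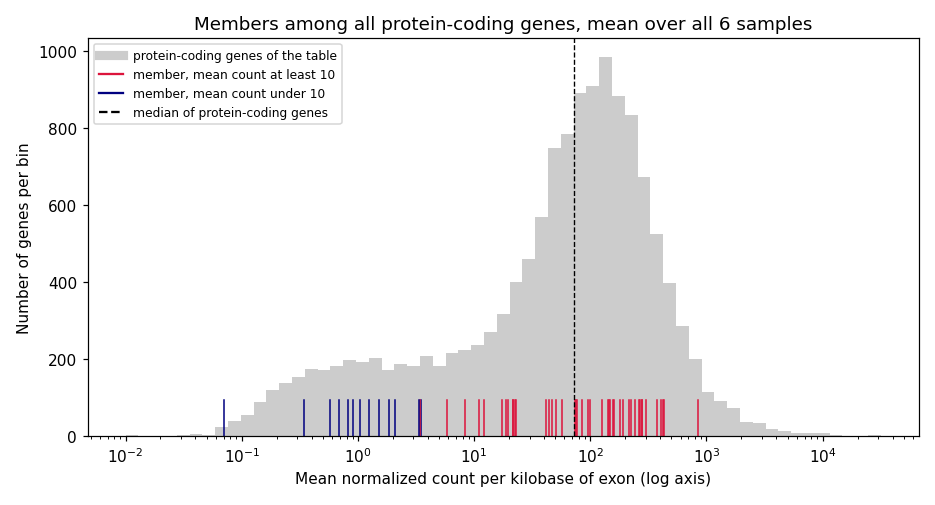
Histogram of the mean normalized count per kilobase of exon (log axis) of the protein-coding genes of the table, with the number of genes per bin on the vertical axis. Each short line at the base is 1 member, red for a mean count of at least 10 and blue for less, and the dashed line is the median of the protein-coding genes, 72.7. The members spread over the whole range, from 0.0705 to 851 per kilobase.

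Among the ligands, 2 genes stood far above the rest. Of the 19 mouse *Wnt* genes, 14 were in the table and 9 had a mean of at least 10. Such a mean was reached by 54.3% of all annotated protein-coding genes and by 85.3% of those in the table. *Wnt7b*, which is known from the collecting duct and the renal medulla, had the highest ligand level, 426 per kilobase (mean normalized count 2187). It was followed by *Wnt9a* with 264 per kilobase (mean normalized count 1033). These 2 genes held 86.9% of the summed ligand level per kilobase, and *Wnt9a* was 11.9 times the next ligand.

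That next ligand was *Wnt4*, a gene needed for the conversion of kidney mesenchyme to epithelium, with 22.3 per kilobase (mean normalized count 112). *Wnt5a*, the best known ligand of the noncanonical branch, had 21.5 per kilobase (mean normalized count 173). Its paralog *Wnt5b* had 17.5 per kilobase and a mean of 100.01, but 21.8% of its exon bases also lie in exons of *Fbxl14* on the other strand. *Wnt10a* stood between them at 18.8 per kilobase (mean normalized count 79.9). The levels of these 4 ligands lay close together, and without an error their order cannot be separated.

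Lower still were *Wnt6* with 8.33 per kilobase (mean normalized count 23.4), *Wnt7a* with 5.83 per kilobase (mean normalized count 19.2) and *Wnt11* with 3.40 per kilobase (mean normalized count 17.2). *Wnt7a*, the closest paralog of *Wnt7b*, was thus 73.1 times lower per kilobase than *Wnt7b*. *Wnt1*, *Wnt2b*, *Wnt3*, *Wnt3a* and *Wnt10b* had means between 1.09 and 9.38. *Wnt2*, *Wnt8a*, *Wnt8b*, *Wnt9b* and *Wnt16* were not in the table used here. *Porcn*, the gene of Porcupine, had 12.2 per kilobase (mean normalized count 82.6), below the 6 highest ligands and above the other 8.

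**Figure D2:**
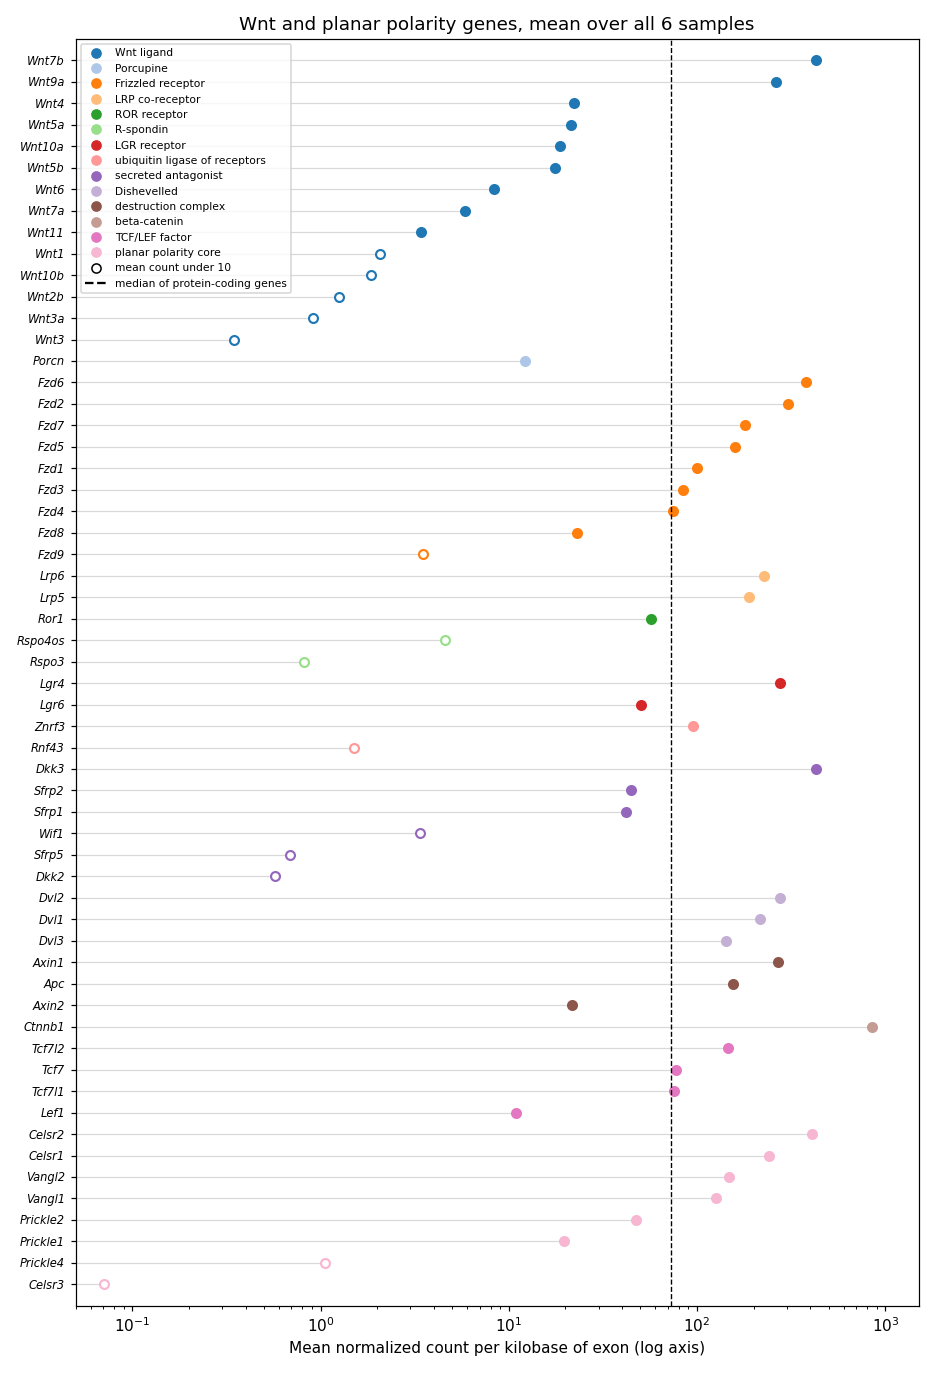
Mean normalized count per kilobase of exon (log axis) of each of the 58 members, ordered by role and then by level. Filled points have a mean count of at least 10 and open points less, and the dashed line is the median of protein-coding genes, 72.7 per kilobase. *Wnt7b* and *Wnt9a* are the only ligands to the right of that line, while 7 of the 9 Frizzled genes lie there.

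Several *Wnt* genes lie in pairs on the chromosomes, and 1 pair differed widely in level. On chromosome 11 of GRCm39, *Wnt3a* (59138859 to 59181584, minus strand) and *Wnt9a* (59197567 to 59224378, plus strand) point away from each other with 15982 bases between them. *Wnt9a* had 290 times the level per kilobase of *Wnt3a*, a gene near the bottom of the table. On chromosome 1, *Wnt6* (74810922 to 74824975) and *Wnt10a* (74830675 to 74844355) follow each other on the plus strand with a gap of 5.70 kb, and *Wnt10a* was 2.26 times *Wnt6* per kilobase. *Wnt3* on chromosome 11 had a mean of 1.09, and its divergent neighbour *Wnt9b* was not in the table used here. *Wnt10b* and *Wnt1* on chromosome 15 overlap on opposite strands by 2308 bases, with 1.84 and 2.07 per kilobase and both means under 10. Exons of *Wnt10b* cover 20.6% of the exon bases of *Wnt1*, and reads from the shared bases may have been assigned to either gene or to neither.

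The 250 bases before the start of the canonical transcript are shown for the chromosome 11 and chromosome 1 pairs, the former because its levels were furthest apart and the latter as a pair in which both means were over 10. They are read from GRCm39 in the direction of the gene, with every CG dinucleotide in capitals, and none overlaps an annotated exon. *Wnt3a* lies at chr11:59181585-59181834 (minus strand), *Wnt9a* at chr11:59197317-59197566, *Wnt6* at chr1:74810672-74810921 and *Wnt10a* at chr1:74830425-74830674 (plus strand).
Wnt3a: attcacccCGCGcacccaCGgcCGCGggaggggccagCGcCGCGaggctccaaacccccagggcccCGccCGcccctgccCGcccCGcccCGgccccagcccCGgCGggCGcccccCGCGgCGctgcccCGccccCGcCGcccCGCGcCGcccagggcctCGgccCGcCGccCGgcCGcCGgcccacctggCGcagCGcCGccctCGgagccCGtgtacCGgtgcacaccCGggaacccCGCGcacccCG
Wnt9a: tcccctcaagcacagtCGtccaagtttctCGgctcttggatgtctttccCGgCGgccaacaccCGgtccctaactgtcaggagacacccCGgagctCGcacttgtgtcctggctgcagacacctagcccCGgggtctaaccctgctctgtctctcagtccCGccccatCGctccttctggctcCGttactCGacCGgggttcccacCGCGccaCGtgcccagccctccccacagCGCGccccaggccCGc
Wnt6: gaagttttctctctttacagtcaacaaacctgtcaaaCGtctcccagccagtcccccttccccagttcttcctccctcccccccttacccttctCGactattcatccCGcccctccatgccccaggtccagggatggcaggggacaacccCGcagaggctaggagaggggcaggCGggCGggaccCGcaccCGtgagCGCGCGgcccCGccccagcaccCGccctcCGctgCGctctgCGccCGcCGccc
Wnt10a: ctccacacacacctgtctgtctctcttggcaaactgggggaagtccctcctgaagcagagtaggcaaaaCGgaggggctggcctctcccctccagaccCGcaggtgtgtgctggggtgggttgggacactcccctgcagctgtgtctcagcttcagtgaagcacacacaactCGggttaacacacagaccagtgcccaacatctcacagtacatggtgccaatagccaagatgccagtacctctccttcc

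The *Wnt3a* promoter was the richest in CG of all members with 41 of these dinucleotides, although the gene had a mean of only 2.52. *Wnt9a* held 19, *Wnt6* 18 and *Wnt10a* only 3. In both pairs shown, then, the neighbour with fewer CG dinucleotides had the higher level. The overlapping *Wnt1* and *Wnt10b*, with 23 and 9, did not follow this order per kilobase (2.07 and 1.84). By their mean counts (4.92 and 9.38), both under 10, they did. Over the protein-coding members the count of CG dinucleotides did not separate the higher from the lower means. The median was 13.5 over the 44 members whose mean was 10 or more and 17 over the 13 members below that. Over all protein-coding genes of the table, the median was 13 for the 11825 genes whose mean was 10 or more and 5 for the 2034 genes below that. The 7911 protein-coding genes that were not in the table had a median of 2. The 15 protein-coding genes of the rule that were not in the table had a median of 8.

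**Figure D3:**
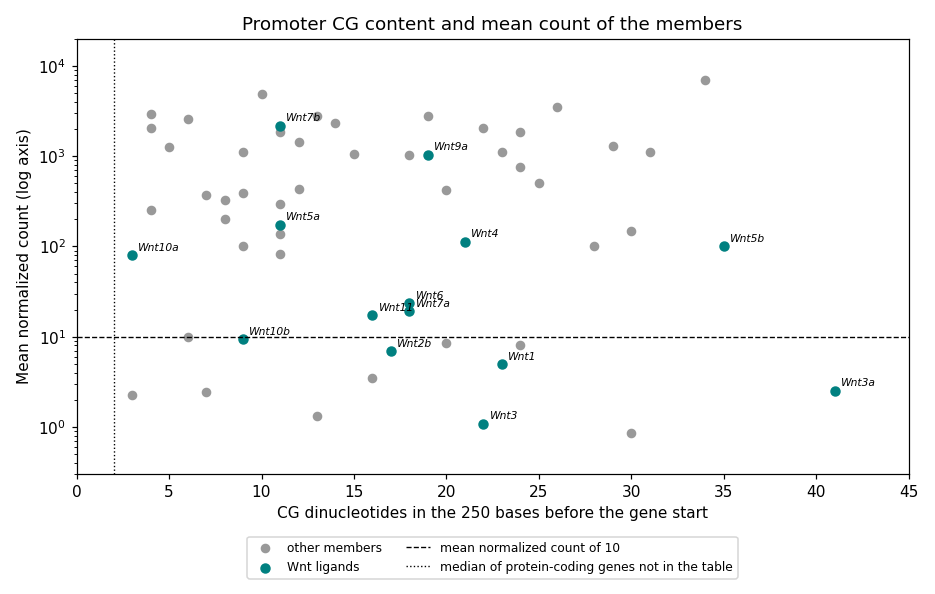
Number of CG dinucleotides in the 250 bases before the canonical transcript start (horizontal axis) against the mean normalized count (vertical log axis). Points are the 57 protein-coding members, with the *Wnt* ligands named. The dashed line marks a mean of 10 and the dotted line the median of protein-coding genes not in the table, 2. Members on both sides of a mean of 10 cover the range of CG counts, and *Wnt3a* sits at the far right with a mean of 2.52.

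TCF/LEF factors bind a short sequence, searched here as CTTTGAT on either strand. These letters were in the promoter window of 1 of the 57 protein-coding members (1.75%) and of 2.86% of all 21770 protein-coding genes. Of the 15 protein-coding genes of the rule that were not in the table, 2 had them (13.3%). Of all 7911 protein-coding genes not in the table, 3.77% had them. At a mean of at least 10, the shares were 2.27% of the 44 members and 2.24% of the 11825 protein-coding genes. Under it they were 0% of 13 members and 2.90% of 2034 genes. With so few matches, these shares cannot show whether the pathway differs from other genes. The member with a match was *Lrp6*, where the letters start 106 bases before the gene start on the minus strand of chromosome 6 (chr6:134544302-134544328, motif in capitals).
Lrp6: cgcaatggcaCTTTGATtttcctacgt
The match is a description of the letters in this window.

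Among the receptors, 9 of the 10 Frizzled genes were in the table and 8 had a mean of at least 10. Such a mean was reached by 54.3% of all annotated protein-coding genes and by 85.3% of those in the table. *Fzd6* led with 379 per kilobase (mean normalized count 2598) and is one of the Frizzled genes of the planar polarity branch. *Fzd2* followed with 303 per kilobase (mean normalized count 1111). *Fzd7* had 180 per kilobase (mean normalized count 1054) and *Fzd5* 160 per kilobase (mean normalized count 1109). Genes on the other strand share 18.1% of the exon bases of *Fzd5* and 13.3% of those of *Fzd6*. The next receptors lay nearer the median of protein-coding genes. *Fzd1* had 100.1 per kilobase (mean normalized count 420.2), *Fzd3*, a second planar polarity receptor, 84.4 per kilobase (mean normalized count 1116), and *Fzd4*, the receptor of Norrin, 74.6 per kilobase (mean normalized count 511). *Fzd8* was lower with 23.0 per kilobase (mean normalized count 137). *Fzd9* had a mean of 8.04, and *Fzd10* was not in the table used here. No single receptor dominated as *Wnt7b* did among the ligands, and *Fzd6* and *Fzd2* together held 52.2% of the summed Frizzled level per kilobase against 86.9% for the leading pair of ligands.

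Of the LRP co-receptors, *Lrp6* had 226 per kilobase (mean normalized count 3484) and *Lrp5* 189 per kilobase (mean normalized count 1862). *Lrp6* was 1.19 times *Lrp5* per kilobase of exon and 1.87 times by the counts themselves, so their closeness depended on the length used. The ROR proteins are receptor tyrosine kinases that bind noncanonical Wnts. *Ror1* had 57.2 per kilobase (mean normalized count 331), and *Ror2* was not in the table used here.

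In the R-spondin system, the receptors had higher levels than the ligands. R-spondins are secreted proteins that bind LGR receptors and thereby shield Frizzled receptors from the ubiquitin ligases ZNRF3 and RNF43. *Lgr4* had 277 per kilobase (mean normalized count 2061), 5.51 times *Lgr6* with 50.3 per kilobase (mean normalized count 373). *Lgr5*, the stem cell marker of the intestine, was not in the table used here. *Znrf3* had 95.0 per kilobase (mean normalized count 762), 62.9 times its paralog *Rnf43* with a mean of 9.92. Of the R-spondin genes, *Rspo3* had a mean of 3.46, and *Rspo1*, *Rspo2* and *Rspo4* were not in the table used here. The rule also took in *Rspo4os*, a noncoding RNA on the strand opposite *Rspo4*, with a mean of 5.84.

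**Figure D4:**
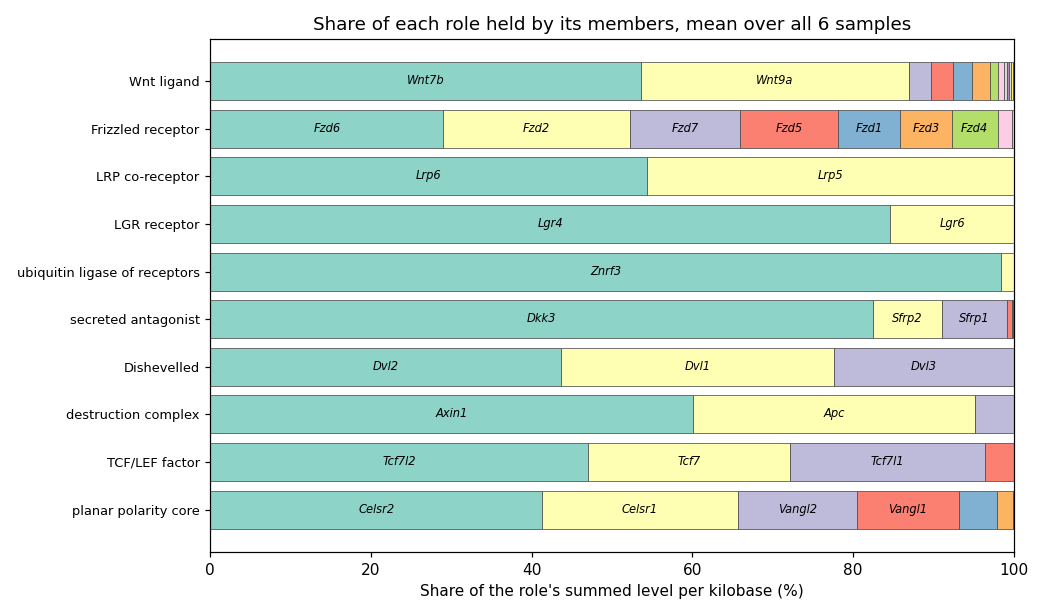
Share (%) of the summed mean normalized count per kilobase held by each member of 10 roles, with each bar ordered from the highest member on the left. Members with over 5.5% are named. *Wnt7b* and *Wnt9a* fill 86.9% of the ligand bar and *Dkk3* alone 82.5% of the antagonist bar, while *Fzd6* and *Fzd2* fill 52.2% of the Frizzled bar, and the LGR and ubiquitin ligase bars hold 2 genes each.

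Among the secreted antagonists *Dkk3* was by far the highest, with 429 per kilobase (mean normalized count 2931), 9.65 times the next. DKK3 is a divergent member of the Dickkopf family, which is otherwise known for blocking LRP co-receptors. *Sfrp2* had 44.4 per kilobase (mean normalized count 102) and *Sfrp1* 41.9 per kilobase (mean normalized count 202). Both encode proteins with a Frizzled-like domain that bind Wnts, and *Sfrp2* shares 21.0% of its exon bases with *Gm26771* on the other strand. *Wif1*, *Sfrp5* and *Dkk2* had means between 1.31 and 8.44, and *Dkk1*, *Dkk4* and *Sfrp4* were not in the table used here.

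The genes of the cytoplasm and the nucleus all had a mean of 10 or more, as did 85.3% of all protein-coding genes of the table. *Ctnnb1*, the gene of β-catenin, which is both the messenger of the canonical branch and a part of adherens junctions, had the highest level of all members, 851 per kilobase (mean normalized count 6947). This placed it at percentile 96.8 of the protein-coding genes, and 11.4% of its exon bases lie in exons on the other strand. *Axin1*, the scaffold of the destruction complex, had 268 per kilobase (mean normalized count 2072) and *Apc*, its tumour suppressor partner, 156 per kilobase (mean normalized count 2803). By the counts themselves *Apc* came before *Axin1*. *Ctnnb1* was thus 3.18 times *Axin1* and 5.45 times *Apc* per kilobase. *Axin2*, a scaffold that is itself a target gene of β-catenin, had only 21.6 per kilobase (mean normalized count 149), 12.4 times less than *Axin1*.

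All 3 Dishevelled genes were present within a range of 1.95 times per kilobase. *Dvl2* had 277 per kilobase (mean normalized count 1847), *Dvl1* 216 per kilobase (mean normalized count 2322) and *Dvl3* 142 per kilobase (mean normalized count 1435). The order of *Dvl1* and *Dvl2* depended on the length used, with *Dvl1* ahead by the counts themselves and by the median length of coding transcripts. Exons on the other strand cover 32.5% of the exon bases of *Dvl1* and 22.6% of those of *Dvl2*. Of the TCF/LEF factors, *Tcf7l2* led with 145 per kilobase (mean normalized count 1300.4). *Tcf7* had 77.5 per kilobase (mean normalized count 298) and *Tcf7l1*, which mostly acts as a repressor, 75.2 per kilobase (mean normalized count 392). *Lef1*, another target gene of the branch, was 13.2 times lower than *Tcf7l2*, with 11.0 per kilobase (mean normalized count 102), and shares 16.3% of its exon bases with *Lef1os1* on the other strand.

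The core planar polarity genes were represented by a pair of genes with a mean of 10 or more in each family. The CELSR proteins are large cadherins that link neighbouring cells. *Celsr2* had 409 per kilobase (mean normalized count 4928) and *Celsr1* 241 per kilobase (mean normalized count 2815), whereas *Celsr3* had a mean of 0.851. With the median length of coding transcripts *Celsr1* came before *Celsr2*. The genes of the membrane proteins VANGL1 and VANGL2 were close in RNA level. *Vangl2* had 147 per kilobase (mean normalized count 1027) and *Vangl1* 126 per kilobase (mean normalized count 1280.4). Their order was the opposite in the counts themselves. The PRICKLE genes were lower. *Prickle2* had 47.2 per kilobase (mean normalized count 436) and *Prickle1* 19.6 per kilobase (mean normalized count 254). *Prickle4* had a mean of 2.26, which is uncertain because 52.3% of its exon bases lie in exons of other genes on the same strand and 59.9% in exons on the other strand. *Prickle3* was not in the table used here.

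The partners of these genes were taken from lists written by hand. Of all protein-coding genes of the table, 85.3% had a mean of 10 or more. All 31 listed genes of the destruction complex and the nuclear partners of β-catenin had a mean of at least 10, with a median of 195 per kilobase. *Tle5*, *Tnks2* and *Ctbp1* were highest (1169, 705 and 475 per kilobase), and *Btrc*, *Tle4* and *Tle2* lowest (34.8, 34.3 and 32.0 per kilobase). Of the planar polarity partners and effectors, 29 of 32 were in the table and all of those had a mean of at least 10, with a median of 62.2 per kilobase. The small GTPases *Rac1* and *Rhoa* and the scaffold *Scrib* led (1338, 500 and 519 per kilobase), and *Nkd2*, *Fat2* and *Ankrd6* came last (4.29, 4.05 and 2.94 per kilobase). Among secretion factors, co-receptors and extracellular regulators, 19 of 23 were in the table and 14 of these reached a mean of 10, and the median of the 19 in the table was 32.5 per kilobase. *Gpc4*, *Ptk7* and *Wls*, the carrier that brings Wnts to the cell surface, were highest (481, 395 and 343 per kilobase), and *Sostdc1*, *Apcdd1* and *Trabd2b* lowest among those that reached it (9.69, 8.69 and 1.05 per kilobase).

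**Figure D5:**
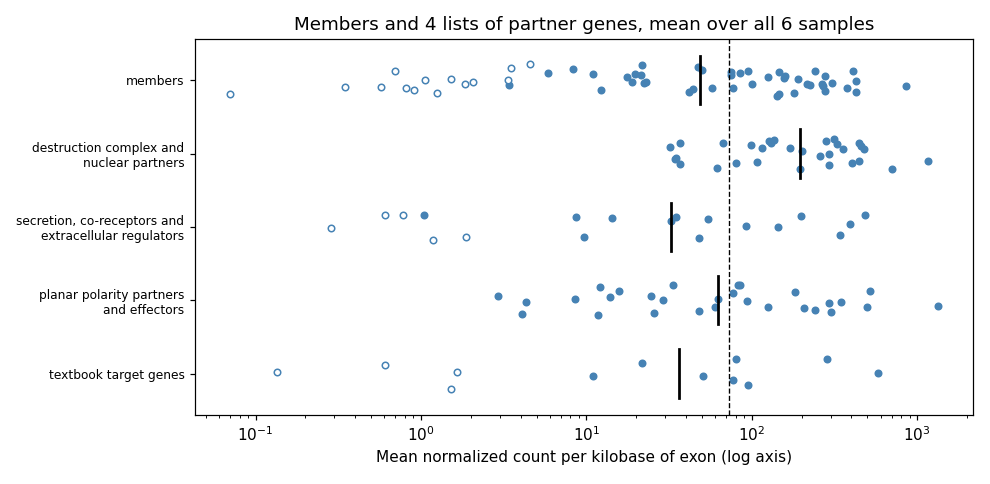
Mean normalized count per kilobase of exon (log axis) of the members and of 4 hand-written lists, with 1 point per gene, open for a mean count under 10. Black bars are medians over the genes in the table and the dashed line is the median of protein-coding genes, 72.7 per kilobase. The list of the destruction complex and nuclear partners, with a median of 195, has no gene with a mean under 10.

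Textbook target genes of β-catenin were mixed in level. Of 19 such genes in the annotation, 12 were in the table and 8 had a mean of at least 10, and 5 of the list are members as well. That mean was reached by 54.3% of all annotated protein-coding genes and by 85.3% of those in the table. *Myc*, *Cd44* and *Znrf3* were highest (576, 283 and 95.0 per kilobase), and *Ccnd1*, *Axin2* and *Lef1* lowest among those that reached it (50.9, 21.6 and 11.0 per kilobase). *Lgr5*, *Sp5*, *Ascl2*, *Nkd1*, *Dkk1*, *Cdx1* and *T* were not in the table used here. Most of these genes respond to other pathways too, and a level averaged over both genotypes does not measure signalling.

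The labelled cell type was checked against marker lists. Of 9 kidney epithelial markers, 6 were in the table and 5 reached a mean of 10. *Cdh16*, *Pax8* and *Pax2* had mean normalized counts between 2428 and 4905, *Epcam* had 115 and *Krt8* 0.980, and *Cdh1*, *Krt18* and *Krt19* were not in the table used here. Of 12 markers of the distal convoluted tubule, 7 were in the table and 6 reached a mean of 10. *Wnk1* was highest (mean normalized count 8468), *Trpm6* had 29.6 and *Klhl3* only 5.70. The defining genes of that segment, *Slc12a3* and *Pvalb*, were not in the table used here, and neither were the markers *Calb1*, *Emx1* and *Trpv5*. Of 5 markers of the thick ascending limb, 0 reached a mean of 10 and 4 were not in the table. Of 9 collecting duct markers, 1 reached it, *Gata3* with 68.8, and 6 were not in the table, *Aqp2* among them. Of 7 proximal tubule markers, 3 reached a mean of 10, among them *Aqp1* with 11355 and *Lrp2* with 8826, whereas *Slc5a2* had 2.77 and *Slc34a1* 2.04. Of the 9 fibroblast and mesenchyme markers, 3 reached 10, among them *Vim* with 17450, and 0 of 6 endothelial and 1 of 6 blood markers did, *Cd68* with 41.9. *Pkd1* itself had a mean normalized count of 3175 over both genotypes, which does not check the genotype of any sample.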

How the data were processed

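RNA of 6 samples, 3 *Pkd1*-/- and 3 wild type, grouped by their titles, had been sequenced. According to the submitters' processing notes and the methods, the authors trimmed reads with Trim Galore 0.4.5, aligned them to GRCm39 using STAR 2.7.5a and counted them per gene by HTSeq 0.11.0 at its default settings. The authors' deposited signal is a mean over all samples of gene counts divided by library size factors. Its values add up to 16746088 over 20624 genes, with a lowest mean of 0.618. The methods name a minimum count per sample and gene, but genes with means under 1 remain in the table. At its default settings HTSeq uses the strand of a read. Whether the counted strand matches the orientation of the libraries is not given in the sources used here, and a mismatch would affect every level above. Each share over 20% of a member's exon bases in exons on the other strand is therefore given beside its level, with some smaller ones. Depth per sample is unknown. The *Gm26917* and *Gm42418* rows held 8.08% of the sum.

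The other columns of the table hold the authors' own comparison of the genotypes (log2 ratio, its error, statistic, p-values) and were not used. The test between genotypes that had been planned for counts of single samples was therefore not run, nor were its alternatives. There were 0 further columns of sample values.

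Members were matched by symbol, with no repeated symbol among them. The mean was divided by the union of a gene's exons in GENCODE vM39 on GRCm39, a release that holds 20122 (97.6%) of the table's identifiers and is later than the one used for counting. Percentiles are among the protein-coding genes of the table. Promoters were the 250 bases before the canonical start, and neighbours were genes of the rule within 100 kb. Members with a mean of at least 10 were named with their values, and from each partner list the 3 highest and 3 lowest of those at that mean. Members, roles and lists were chosen with earlier results of these data known. The steps were tested on simulated data. Python 3.11.15, numpy 2.4.6, pandas 2.3.3 and matplotlib 3.10.9 were used. The alternatives were other minimum means, summed rows and other gene lengths.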

Additional observations from a re-analysis of the deposited data

How the results depend on the processing

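The table used here gives 1 value per gene, with no error, no leave-one-out value and no test between genotypes. No paired analysis was possible because each gene has only a mean over all samples. Depth limits the lowest genes, and the order of genes with close levels cannot be separated.

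The number of members at the minimum mean was 57 with a minimum of 1, 50 with 5, 41 with 50 and 39 with 100, against 44 with a minimum of 10 or with summed rows. The leading member was the same in 11 of 11 roles with the longest transcript as length and in 8 of 11 with the median coding transcript, where *Dvl1* and *Celsr1* took the lead and the noncoding *Rspo4os* had no such length. By the counts themselves, *Dvl1* and *Apc* came first in their roles. The share of the leading member moved with the length. With the longest transcript it was 59.2% for *Wnt7b*, 37.2% for *Fzd6*, 63.2% for *Lrp6*, 87.7% for *Lgr4*, 38.2% for *Dvl2*, 56.1% for *Axin1*, 58.1% for *Tcf7l2* and 39.8% for *Celsr2*. Without division by length it was 58.0% for *Wnt7b*, 32.2% for *Fzd6*, 65.2% for *Lrp6*, 90.3% for *Dkk3*, 33.0% for *Dvl2*, 41.2% for *Axin1*, 62.1% for *Tcf7l2* and 45.9% for *Celsr2*. By the union of exons these shares were 53.7% for *Wnt7b*, 29.0% for *Fzd6*, 54.4% for *Lrp6*, 84.6% for *Lgr4*, 82.5% for *Dkk3*, 43.6% for *Dvl2*, 60.1% for *Axin1*, 47.0% for *Tcf7l2* and 41.3% for *Celsr2*.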
